A study of Mus musculus with 10 samples.

Results

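The proteasome is the chambered protease that degrades most ubiquitin-tagged proteins in the cell. A core particle of stacked alpha and beta rings holds the proteolytic sites inside the beta rings, and a regulatory cap of ATPases, scaffold subunits and ubiquitin receptors selects, unfolds and feeds substrates through the alpha ring. Cells can exchange the catalytic beta subunits for inducible ones that favour antigenic peptides, can replace the cap by ubiquitin-independent activators, and need dedicated chaperones to put the particle together. In muscle the proteasome carries out much of the turnover of contractile protein and is engaged when fibres atrophy.

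The members described here were the protein-coding mouse genes whose GRCm38 symbol is Psma, Psmb, Psmc, Psmd, Psme, Psmf or Psmg followed by digits. They numbered 48, beside 20009 genes with counts in all, and 46 of the 48 had at least 1 count. By role they comprised 19 core genes, 22 genes of the cap with its alternative activators and inhibitor, and 7 assembly factors. RNA of soleus and tibialis anterior (TA) muscle had been sequenced from wild-type mice, giving 5 soleus and 5 TA libraries. Each muscle was represented by 3 male and 2 female mice, and the study set the slow-twitch soleus against the fast-twitch TA. No strain, age or treatment was given. A soleus and a TA library of the same sex and replicate number carried the same animal number in their deposited names and were read as one mouse. The p-values below measure the spread between these libraries.

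Each library held 726075 to 961237 counts assigned to genes, of which the members took 1536 to 1877 in soleus and 1908 to 2768 in TA. That was 0.192% to 0.226% of a soleus library and 0.227% to 0.308% of a TA library. These are shares of all counts, of which Gm20594 alone took 22.1% to 28.4% in soleus and 17.2% to 20.9% in TA. Cep295 took 4.72% to 6.26% and 3.85% to 5.71%. Outside these genes the member shares of the muscles overlapped. Members took 1644 of 513984 such counts in soleus of female mouse 1 and 2134 of 689618 in TA of male mouse 1. The labels of the muscles fitted their fibre markers. The summed level of 5 slow-fibre markers was 4994 to 6695 counts per 1000000 of the scaled library (CPM) in soleus and 0.00 to 12.7 CPM in TA, and that of 5 fast-fibre markers was 186 to 535 CPM in soleus and 8764 to 15895 CPM in TA. One library stood apart. The soleus library of female mouse 2 listed 15070 genes, and in it 6.47% of the member counts outside Psma7-206, a transcript described below, fell on transcripts with a retained intron, against 1.27% to 3.12% elsewhere. Calls that change without it are given with and without it.

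Of the 48 members, 29 passed the low-count filter and could be tested, namely 15 core genes, 13 cap genes and 1 assembly factor. In the comparison of soleus with TA, 4 of the 29 (13.8%) passed an adjusted p of 0.05 with edgeR's quasi-likelihood test, beside 22.0% of all 5115 genes tested. With DESeq2 the members numbered 3, Psmc6 being lost, beside 20.9% of all genes. With edgeR Psme3 was higher in soleus, and Psme4, Psma7 and Psmc6 were higher in TA. These were 3.45% of the tested members toward soleus and 10.3% toward TA, against 11.0% of all genes in each direction. At an unadjusted p under 0.05 the members numbered 6, beside 33.7% of all genes. In 28 of the 29 members the difference stayed under 1 on the log2 scale, that is under 2-fold, as it did in 82.7% of all genes. The libraries of both muscles were fully separated for 1 tested member, Psme4, beside 15.1% of all genes.

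The median log2 fold change of soleus over TA was -0.01 over the 29 tested members and 0.01 over all tested genes. By sign, 14 members were above 0 and 15 below, where 50.4% of all genes were above 0. The 95% confidence interval of the fold change lay within 1 log2 unit of 0 for 22 of the 29 members. The medians by role were -0.33 for 7 alpha ring genes, -0.18 for 5 constitutive beta ring genes, 0.32 for 3 inducible beta genes, -0.01 for 3 base ATPases and -0.04 for 8 other cap subunits. They are descriptions of the members that passed the filter. The median of the inducible genes rested on single libraries: it was -0.12 without the soleus library of female mouse 1 and 0.67 without that of female mouse 2.

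**Figure D1:**
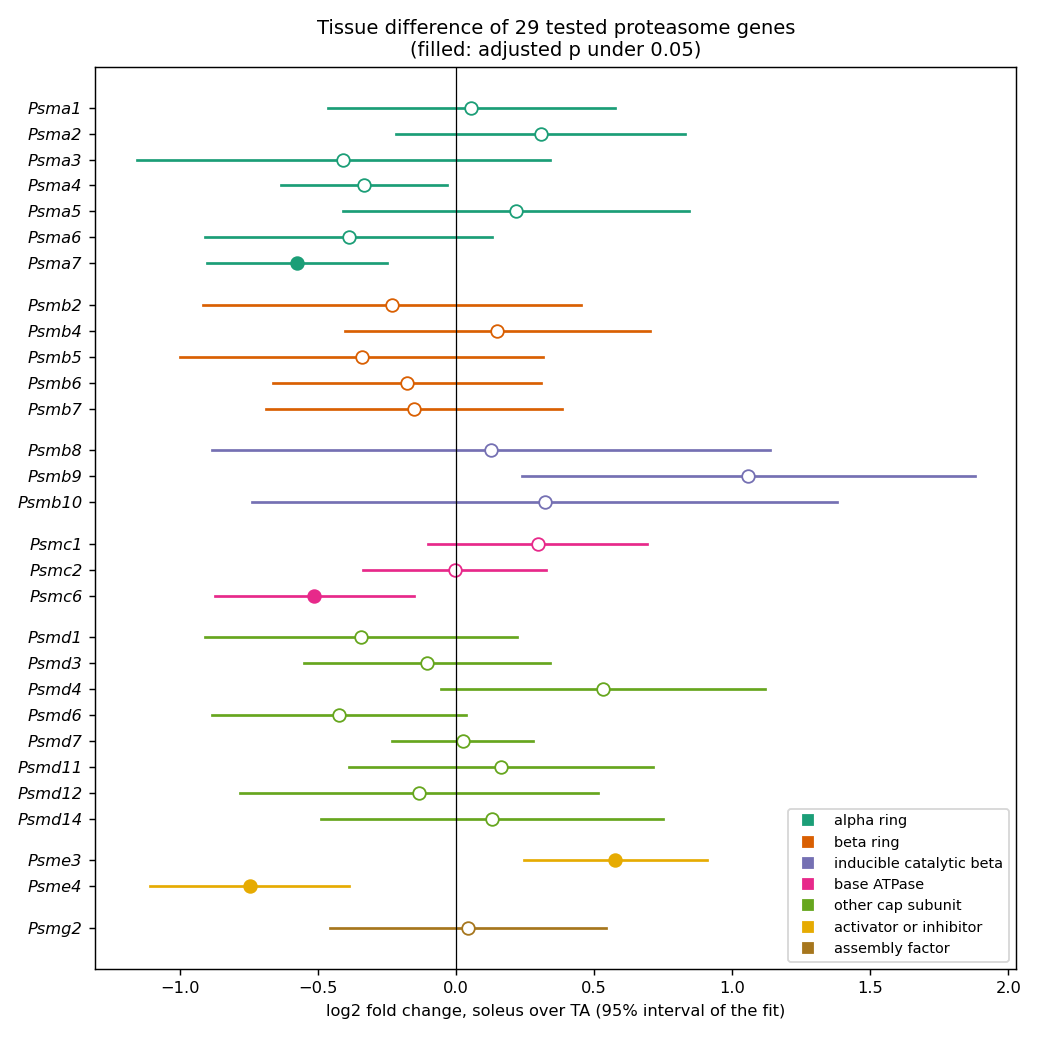
Log2 fold change of soleus over TA (x axis) for each of the 29 tested members, with lines for the 95% confidence interval, grouped and coloured by role. Points right of 0 were higher in soleus, and the 4 filled points, Psme4, Psma7, Psmc6 and Psme3, passed the adjusted p of 0.05.

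The activators held 2 of the calls, in opposite directions. Psme4 encodes PA200, a large nuclear activator that opens the core particle without ATP or ubiquitin and is known for its part in degrading acetylated histones. The gene lies at chr11:30771726-30880361 on the plus strand of GRCm38. Its level was 384.8, 443.0 and 448.6 CPM in the soleus of male mice 1, 2 and 3 and 415.1 and 431.7 CPM in the soleus of female mice 1 and 2. In TA it was 633.7, 769.2 and 698.1 CPM in the males and 508.4 and 955.6 CPM in the females. Every TA library was above every soleus library, and the TA libraries were far more spread than those of soleus. The means were 425 ± 25.7 CPM in soleus and 713 ± 166 CPM in TA (SD, n = 5 each), and the fitted log2 fold change of soleus over TA was -0.75 (SE 0.17, edgeR adjusted p 0.0066). Psme4 was 1.68-fold higher in TA by the means, and higher in TA in 5 of 5 mice. Protein-coding transcripts carried 99.8% of its 4935 counts. The call held in each of the 19 alternative settings, with log2 fold changes from -0.89 to -0.58.

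Psme3 encodes the PA28-gamma activator, a nuclear ring that also works without ATP and ubiquitin and acts on selected regulatory proteins. It lies at chr11:101316213-101323537 on the plus strand. Soleus levels were 83.0, 70.9 and 83.6 CPM in the males and 48.8 and 52.5 CPM in the females. TA levels were 53.0, 42.9 and 55.5 CPM in the males and 31.4 and 42.2 CPM in the females. Within each mouse the soleus library was the higher, but the libraries of the muscles overlapped because the females lay low in both. The means were 67.8 ± 16.5 CPM and 45.0 ± 9.63 CPM (SD, n = 5 each), with a log2 fold change of 0.58 (SE 0.15, edgeR adjusted p 0.0171). All 476 counts fell on protein-coding transcripts. Without the first female TA library the adjusted p was 0.0698, and with no low-count filter it was 0.212. The other activator genes, Psme1 and Psme2 of the interferon-induced PA28 ring, had 11 and 2 counts in all, and the inhibitor Psmf1 had 5, so none was tested.

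Among the 6 base ATPases, the motor ring that unfolds substrates, Psmc6 passed the threshold. Psmc6 lies at chr14:45329788-45349705 on the plus strand. Its soleus levels were 49.1, 44.2 and 36.9 CPM in the males and 25.0 and 40.0 CPM in the females, and its TA levels were 59.8, 64.9 and 63.6 CPM in the males and 47.7 and 44.3 CPM in the females. The muscles overlapped only through the highest soleus library and the lower TA ones, and TA was the higher in 5 of 5 mice. The log2 fold change was -0.51 (SE 0.17, edgeR adjusted p 0.0431) between means of 39.0 ± 9.07 and 56.0 ± 9.45 CPM (SD, n = 5 each). This call was near the threshold. It was lost when any 1 library other than soleus female 2 was left out, with adjusted p from 0.0545 to 0.106, with DESeq2 (adjusted p 0.101), with each mouse as a block (0.0567), and in 14 of the 19 alternative settings in all. Psmc2, also a base ATPase, was at 224 ± 29.1 CPM in soleus and 225 ± 36.2 CPM in TA, and the 95% interval of its log2 fold change ran from -0.34 to 0.33. One of its transcripts, the retained-intron Psmc2-202, had 71 counts in the soleus library of female mouse 2 and 7 to 22 in the others. Psmc1 had a log2 fold change of 0.29 (SE 0.18, adjusted p 0.293), or 0.45 (adjusted p 0.0661) without the soleus library of female mouse 2, and it shares sequence with the copy Gm9575, which leaves its count uncertain. Psmc3, Psmc4 and Psmc5 had 10 to 49 counts each and were not tested.

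**Figure D2:**
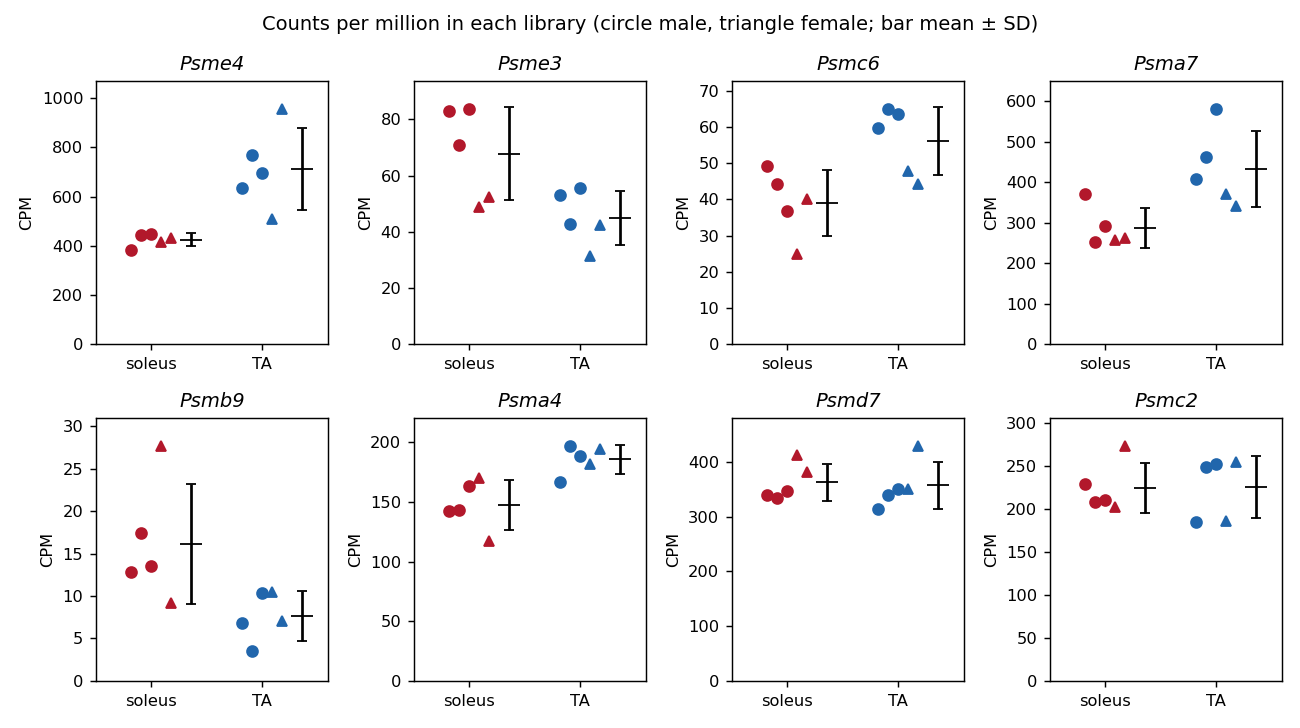
Level in CPM (y axis, from 0) of Psme4, Psme3, Psmc6, Psma7, Psmb9, Psma4, Psmd7 and Psmc2 in each of the 10 libraries, by muscle, with circles for males, triangles for females and a bar for the mean ± SD. The Psme4 points of TA, from 508.4 to 955.6 CPM, all lie above those of soleus, while for the other 7 genes the muscles share part of their range.

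RefSeq promoters of GRCm38.p6, taken as 250 bases before to 50 bases after a start, were matched for 40 of the 48 members. They are shown for Psme4, Psme3 and Psmc6 because nearly all counts of these 3 called genes fell on protein-coding transcripts. In the fit of protein-coding transcripts alone Psme4 and Psme3 were still called and Psmc6 was not. Capitals mark a match to TGACNNNGC on either strand, the core of the antioxidant response element that is bound by Nfe2l1, the transcription factor known to raise proteasome genes when the protease is impaired. The windows are chr11:30771525-30771824 for Psme4, chr11:101315963-101316262 for Psme3 and chr14:45329574-45329873 for Psmc6, all on the plus strand.
Psme4: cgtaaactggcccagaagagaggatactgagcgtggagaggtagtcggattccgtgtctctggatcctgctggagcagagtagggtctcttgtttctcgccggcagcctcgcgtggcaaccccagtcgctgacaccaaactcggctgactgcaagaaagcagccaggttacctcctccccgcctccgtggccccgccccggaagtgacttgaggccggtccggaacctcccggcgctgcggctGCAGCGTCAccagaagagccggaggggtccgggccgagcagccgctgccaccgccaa
Psme3: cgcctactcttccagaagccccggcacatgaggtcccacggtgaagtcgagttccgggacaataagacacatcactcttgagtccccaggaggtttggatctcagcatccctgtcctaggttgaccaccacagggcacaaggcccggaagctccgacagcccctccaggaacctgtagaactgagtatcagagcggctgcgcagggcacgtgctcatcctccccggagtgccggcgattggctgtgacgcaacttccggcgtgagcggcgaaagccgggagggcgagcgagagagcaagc
Psmc6: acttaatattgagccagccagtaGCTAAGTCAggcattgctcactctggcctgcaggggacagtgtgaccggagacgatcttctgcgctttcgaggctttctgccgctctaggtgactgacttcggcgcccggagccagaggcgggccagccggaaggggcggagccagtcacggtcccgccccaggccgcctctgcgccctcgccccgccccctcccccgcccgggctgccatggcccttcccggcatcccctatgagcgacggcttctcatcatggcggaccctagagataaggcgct
The Psme4 and Psmc6 windows held 1 match each and the Psme3 window held 0. Over all members, 6 of 43 promoters (14.0%) held the letters, in Psmb5, Psmb6, Psmc6, Psmd9, Psmd12 and Psme4, against 12.4% of 32851 promoters of all genes. CCAAT was found in 14 of the 43 (32.6%), against 37.4% of all. The core of the interferon-stimulated response element, GAAA repeated after any 2 bases and searched on both strands like the others, was found in 5 of the 43 (11.6%), namely those of Psmb3, Psmd4, Psmd9, Psme1 and Psmg4, against 3.44% of all.

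The alpha ring forms the gate through which substrates enter the core. Psma7, at chr2:180036374-180042433 on the minus strand, had the lowest p in the ring. Its soleus levels were 370.7, 253.0 and 291.3 CPM in the males and 258.3 and 262.7 CPM in the females. Its TA levels were 407.1, 463.4 and 580.2 CPM in the males and 369.9 and 341.0 CPM in the females. TA was higher in 5 of 5 mice, and only the first male soleus library, at 370.7 CPM, reached into the TA range. The means were 287 ± 49.0 CPM and 432 ± 94.5 CPM (SD, n = 5 each), with a log2 fold change of -0.58 (SE 0.15, edgeR adjusted p 0.0152).

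The Psma7 value cannot be read as a count of its coding messenger RNA. Of 3089 counts, 3067 (99.3%) fell on Psma7-206, an annotated transcript with a retained intron, with 1156 in soleus and 1911 in TA. The protein-coding Psma7-201 had 4 counts in the 10 libraries. It has 23 own 31-base words, that is, words present in no other transcript, against 357 in Psma7-206. The other protein-coding transcript, Psma7-203, has 294 own words and had 0 counts. Whether reads of coding Psma7 RNA were assigned to Psma7-206 was not tested. With protein-coding transcripts alone Psma7 could not be tested and Psmc6 was no longer called. In that fit 2 members, Psme3 and Psme4, were called in place of 4. Psma7-206 is 651 bases long and has 2 exons at chr2:180037634-180038821. Its bases 1 to 221 are shared with a coding transcript. Further along, a stretch centred on bases 463 to 605 matched 1431 transcripts of 1159 other genes over at least 100 bases, at 78.9% to 94.1% identity by blastn. It is printed here because it lies in the transcript that carries the call. The sequence is from the GENCODE M21 transcripts, bases 448 to 620, and capitals mark the matched stretch with the adenine-rich run that ends it, which includes 11 adenines in a row.
Psma7-206: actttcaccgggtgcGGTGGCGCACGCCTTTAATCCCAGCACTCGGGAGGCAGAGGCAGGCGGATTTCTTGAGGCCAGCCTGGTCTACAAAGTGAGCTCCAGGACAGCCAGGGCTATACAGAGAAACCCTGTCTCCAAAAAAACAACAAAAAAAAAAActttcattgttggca
Whether reads of other genes were assigned to this stretch was not tested. Psma7-206 took 11.7% to 20.8% of the member counts of a library.

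**Figure D3:**
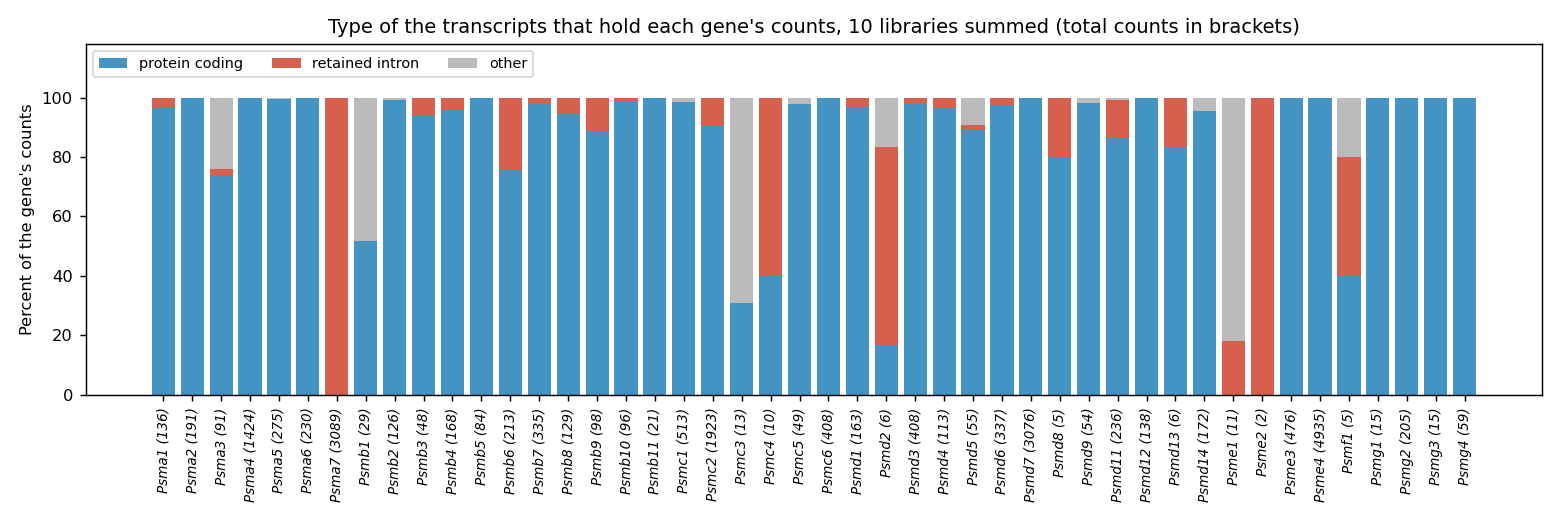
Percent of each gene's counts, summed over the 10 libraries, that fell on protein-coding transcripts, on transcripts with a retained intron and on other kinds, with the gene's total counts in brackets on the x axis. The Psma7 bar is almost all retained intron, at 3067 of 3089 counts, while that of Psme4 is 99.8% protein coding.

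The rest of the alpha ring did not pass the test. Psma4 was at 142.7, 143.2, 163.5, 170.0 and 117.6 CPM in soleus, in the order of male mice 1 to 3 and female mice 1 and 2. In TA it was at 166.9, 196.9, 188.4, 181.5 and 194.1 CPM. TA was the higher in 5 of 5 mice, with 1 soleus library above the lowest of TA. The log2 fold change was -0.33 (SE 0.14, edgeR adjusted p 0.108). Psma4 shares sequence with the copy Gm6542, so part of its reads could have been assigned there. Such sharing was not limited to Psma4 and Psmc1. Of the 48 members, 20 had at least 100 matches of 31-base words with another gene, the called Psma7 among them. Its part in their counts was not tested. The other tested alpha genes, Psma1, Psma2, Psma3, Psma5 and Psma6, had log2 fold changes from -0.41 to 0.31. Psma8, the testis form, had no count. With protein-coding transcripts alone the ring's median was 0.10 in place of -0.33. The medians cover different sets of genes, since Psma7 could not be tested in that setting.

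The beta ring holds the active sites, and no tested beta gene passed the threshold with edgeR or DESeq2, while 1, the inducible Psmb9, had an unadjusted p under 0.05. Psmb5, Psmb6 and Psmb7 encode the chymotrypsin-like, caspase-like and trypsin-like sites of the constitutive particle. Their summed level was 69.4 ± 13.6 CPM in soleus and 78.7 ± 9.39 CPM in TA (SD, n = 5 each). Single log2 fold changes were -0.34 for Psmb5 (SE 0.30, adjusted p 0.484), -0.18 for Psmb6 (SE 0.22, 0.637) and -0.15 for Psmb7 (SE 0.25, 0.720). Psmb1 had 22 counts in soleus, 2 to 8 in a library, and 7 in TA, 1 or 2 in a library, and was too low to test. Psmb3, with 48 counts, was also not tested.

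The inducible catalytic subunits Psmb8, Psmb9 and Psmb10 replace Psmb5, Psmb6 and Psmb7 in the immunoproteasome, which is known for making peptides for antigen presentation. Psmb9 was at 12.9, 17.4 and 13.5 CPM in male soleus and 27.7 and 9.1 CPM in female soleus. In TA it was at 6.8, 3.5 and 10.4 CPM in males and 10.5 and 7.0 CPM in females. Soleus was the higher in 5 of 5 mice, while the lowest soleus library, that of female mouse 2, lay within the TA range. The log2 fold change was 1.06 (SE 0.38, edgeR adjusted p 0.0636), the one difference above 1 among the members, on 98 counts in all. Without that soleus library it was 1.33 with an adjusted p of 0.0110. Without both libraries of female mouse 2, an alternative added after the data were seen, it was 1.16 with an adjusted p of 0.0268. Without the soleus library of female mouse 1, the highest for Psmb9, it was 0.72 with an adjusted p of 0.215, and over all 10 left-out libraries the adjusted p ran from 0.0110 to 0.215.

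Psmb8 and Psmb10 had wide errors, with log2 fold changes of 0.13 (SE 0.47, adjusted p 0.889) and 0.32 (SE 0.49, 0.706). Psmb10 was at 2.28 CPM in the soleus of female mouse 2, the lowest of all 10 libraries, and its log2 fold change was 0.67 without that library (adjusted p 0.241) and -0.12 without the soleus library of female mouse 1. The 3 inducible subunits summed to 33.9, 46.8, 49.2, 71.2 and 24.0 CPM in soleus and to 24.8, 34.8, 45.1, 45.4 and 14.1 CPM in TA, in the order of male mice 1 to 3 and female mice 1 and 2. The order of the mice was the same in both muscles, with female mouse 2 lowest and female mouse 1 highest. Leukocyte markers, the cells in which these subunits are abundant, summed to 195 to 323 CPM in soleus and 218 to 460 CPM in TA. Of the 6 leukocyte and 4 macrophage markers tested 0 were called with edgeR or DESeq2, with 1 and 0 at an unadjusted p under 0.05, and lymphocyte markers were at 16.2 CPM or less in every library. The lowest soleus sums of all 3 marker lists were those of female mouse 2. Single leukocyte markers did not all follow. Among soleus libraries H2-Ab1 was lowest there, at 99.4 CPM against 144 to 247 CPM. Lcp1 was highest there, at 60.5 CPM against 3.69 to 11.9 CPM, and so was Coro1a, at 2.28 CPM. The part of the marked cells in the Psmb9 values was not tested. Psmb11, the thymus form, had 21 counts.

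The lid and the remaining base subunits recognise ubiquitin and remove it before a substrate is unfolded, and 0 of the 8 tested passed the threshold with edgeR or DESeq2, or an unadjusted p of 0.05 with edgeR. Psmd7, a lid subunit that pairs with the deubiquitinase Psmd14, was at 363 ± 33.6 CPM in soleus and 357 ± 43.0 CPM in TA (SD, n = 5 each). Its log2 fold change was 0.02, with a 95% interval from -0.23 to 0.28, the narrowest of the members. Psmd4, a ubiquitin receptor, had a log2 fold change of 0.53 (SE 0.27, edgeR adjusted p 0.192) and was higher in soleus in 5 of 5 mice. Psmd6, a lid subunit, went the other way at -0.42 (SE 0.21, 0.184), with TA higher in 5 of 5 mice. Psmd3, also of the lid, stood at -0.11 (SE 0.20, 0.773), and at 0.086 without the soleus library of female mouse 2. Psmd1, Psmd11, Psmd12 and Psmd14 lay between -0.34 and 0.16. Psmd2, Psmd8 and Psmd13 had 5 or 6 counts each.

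The assembly factors among the members were scarcely counted. Psmg2, a chaperone of the alpha ring, was the 1 of 7 that could be tested, at 24.4 ± 6.84 CPM in soleus and 23.8 ± 4.62 CPM in TA (SD, n = 5 each), with a log2 fold change of 0.04 (SE 0.23, adjusted p 0.924). Its partner Psmg1 had 15 counts, Psmg3 had 15 and Psmg4 had 59. Of the base chaperones, Psmd5 had 55 counts, Psmd9 had 54 and Psmd10 had 0. The 19 untested members as a whole had 0 to 59 counts, against at least 84 for the tested ones. Counts of 0 or near 0 do not show absence here. For each member the coding transcript with the most own 31-base words, present in no other transcript, was taken. The median was 126 words for the 19 untested members (27 to 3945) and 432 for the 29 tested members (41 to 5143). The part of this in the counts was not tested.

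The summed levels by role showed how much single genes weighed. All members together came to 2136 ± 54.0 CPM in soleus and 2575 ± 252 CPM in TA (SD, n = 5 each), and every TA library lay above every soleus library. Without Psma7 and Psme4 the sums were 1425 ± 48.3 and 1430 ± 74.5 CPM, with full overlap. Both genes were called toward TA, while Psme3, called toward soleus, was kept. A smaller gap therefore followed from the choice, and these sums show only the weight of the genes left out. Core genes summed to 707 ± 53.8 CPM in soleus and 880 ± 120 CPM in TA, and without Psma7 to 420 ± 44.1 and 448 ± 25.9 CPM. Cap genes summed to 1379 ± 26.7 and 1650 ± 230 CPM, and without Psme4 to 954 ± 41.1 and 937 ± 67.5 CPM. Assembly factors summed to 50.5 ± 8.72 and 44.5 ± 6.49 CPM. In whole muscle, fewer cells of a type and less RNA per cell cannot be told apart. Endothelial markers moved with muscle, with 3 of 3 tested higher in TA and sums of 249 to 305 CPM in soleus and 341 to 879 CPM in TA. Of the tested pericyte and smooth muscle markers 2 of 3 were called higher in TA with edgeR. Of the adipocyte markers 3 of 4 were called higher in soleus. Of 5 tenocyte markers 1 was called higher in soleus, and 4 had an unadjusted edgeR p under 0.05. The part of these cell types in the member values was not tested.

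**Figure D4:**
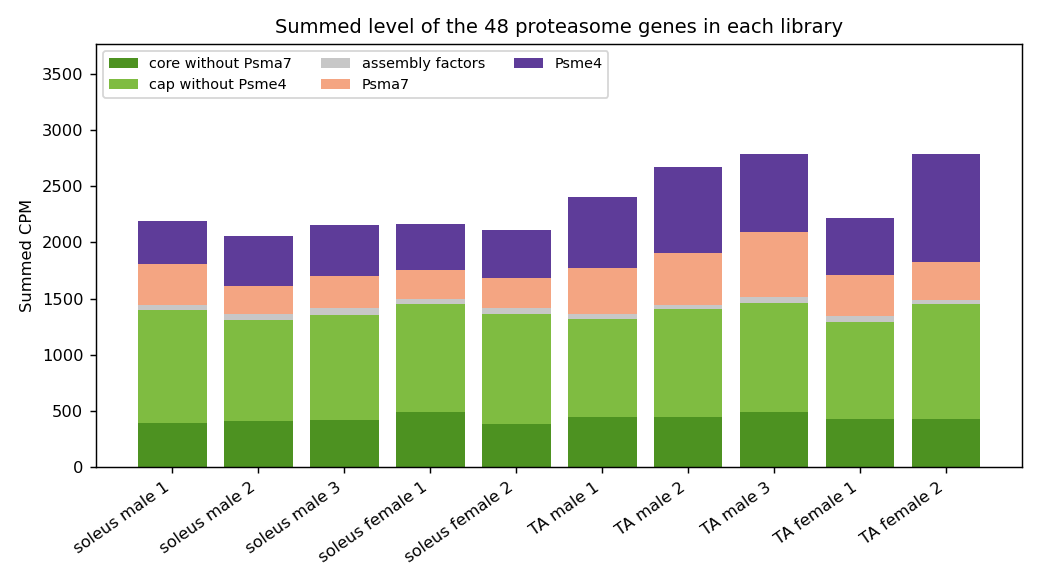
Summed level in CPM (y axis) of the 48 members in each library, stacked as core without Psma7, cap without Psme4, assembly factors, Psma7 and Psme4. The lower 3 blocks reach 1360 to 1493 CPM in soleus and 1341 to 1512 CPM in TA, and the TA bars are taller through the Psma7 and Psme4 blocks.

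The muscle difference was also fitted within each sex. In males 2 of the 29 members were called, Psma7 and Psme3, beside 13.5% of all genes. In females 0 were called with edgeR, beside 7.92% of all genes, and DESeq2 called 0. At an unadjusted edgeR p under 0.05 there were 2 in females, for which the share of all genes was not counted. For Psme4 the log2 fold change was -0.72 (SE 0.22) in 3 males and -0.79 (SE 0.27) in 2 females. The interaction of muscle with sex was called for 0 of the 29 members and 0 of 5115 genes with edgeR, and DESeq2 called 0 members. At an unadjusted p under 0.05 it held 1 member, Psmb7, beside 6.86% of all genes. Psmb7 was at -0.56 (SE 0.27) in males and 0.43 (SE 0.33) in females, an interaction of 1.00 (SE 0.43, adjusted p 0.711). Between the sexes no member was called with edgeR in soleus, where 0.547% of all genes were, or in TA, where 0.645% were, and 1 of the 29 was under an unadjusted p of 0.05 in each, beside 16.5% of all genes in soleus and 11.7% in TA. In soleus it was Psme3, with females minus males at -0.64 on the log2 scale (SE 0.22, adjusted p 0.173). In TA it was Psma6, at -0.88 (adjusted p 0.298). The contrasts between the sexes were added after the data were seen.

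Genes that supply and regulate the proteasome were counted in lists of the pathway. Of 6 ubiquitin and ubiquitin-activating genes 3 were tested and 0 were called with edgeR or DESeq2, with 0 at an unadjusted p under 0.05. Of 28 proteasome regulators 18 were tested, with 0 called toward soleus and 4 toward TA by edgeR, 6 at an unadjusted p under 0.05, and 4 called by DESeq2. The edgeR shares, 22.2% called and 33.3% at an unadjusted p under 0.05, were near the 22.0% and 33.7% of all genes. Ddi2, the protease that activates Nfe2l1, was at 40.9 to 72.5 CPM in soleus and 107 to 146 CPM in TA. Its log2 fold change was -1.10 (SE 0.16, edgeR adjusted p 3.3e-04). Ecpas, an adaptor of the proteasome, was at 170 ± 32.3 CPM in soleus and 278 ± 31.3 CPM in TA (SD, n = 5 each), a log2 fold change of -0.71 (SE 0.16, adjusted p 0.00746). Ube3c, a ubiquitin ligase bound to the cap, was at 45.8 ± 4.60 and 70.0 ± 6.38 CPM, at -0.61 (SE 0.14, 0.00650), and Vcp, the segregase that hands over ubiquitinated substrates, was at -0.54 (SE 0.15, 0.0189). The Vcp call was lost without the second male soleus library (adjusted p 0.0566) or without that of female mouse 2 (0.0508), and Ube3c was lost with no low-count filter (0.0580). Pomp, the maturation factor of the core, is not a member by its symbol. It had 798 counts in all and a log2 fold change of 0.28 (edgeR adjusted p 0.234). Akirin2, named after its values were seen, carries the proteasome into the nucleus and stood at 0.49 (SE 0.18, adjusted p 0.0715), higher in soleus in 5 of 5 mice. With each mouse as a block its adjusted p was 0.0324, and without the soleus library of female mouse 2 it was 0.0402. Nfe2l1 itself had 22 counts and was not tested. Of 12 antigen presentation genes 6 were tested and 0 were called with edgeR or DESeq2, with B2m and Calr at unadjusted p of 0.0436 and 0.0450.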

How the data were processed

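Values are read counts for each Ensembl transcript of 5 soleus and 5 TA libraries, deposited by the authors without normalization, and a transcript without a read is not listed. Per the labels, 10 ng of total RNA entered each library and a stranded SMART-Seq kit was used. The submitters' processing notes name bcl2fastq, FastQC, Trimmomatic 0.32 and GRCm38.p4. The aligner and counter are not given in the sources used here.

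Transcripts were matched by identifier to GENCODE M21 of GRCm38 (40359 of 40414) and summed to genes. Tests used edgeR 4.0.16 in R 4.3.3 with limma 3.58.1: genes kept by filterByExpr over the 4 groups of muscle and sex (5115), TMM scaling, the quasi-likelihood F test with sex as covariate, and Benjamini-Hochberg adjustment over all 5115 genes. Within-sex values and the interaction came from a fit of 4 group means. Sequence searches used blastn with E at most 1e-05. DESeq2 1.42.0, other scalings and filters, a mouse block, protein-coding transcripts alone and leaving out each library were alternatives. The fitting script was tested on simulated data. CPM are counts per 1000000 of the TMM-scaled library size. A library held 726075 to 961237 counts, so members with few counts have wide intervals.

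The members and gene lists were chosen with earlier results of these data known. The genes named were every called member, further members by p up to 8, up to 2 of the highest mean CPM per role, Psmb8, Psmb9 and Psmb10, and up to 4 called genes of each other list. Within mice, deviations of same-numbered soleus and TA libraries from their group means correlated at r of 0.183 to 0.239 in males and 0.285 in females. The female mice share a single value, because deviations in a group of 2 mirror each other. Libraries of different mice were not correlated for comparison, so these values do not test the pairing. The pairing comes from the animal number in the deposited names.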

Additional observations from a re-analysis of the deposited data

Results flagged for a closer look

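A single library lay far from the other 4 of its muscle, by a gap relative to the whole range, for 2 of 76 groups of 5 libraries examined over the members and the sums, and chance alone gives about 1 in 20 such groups. Psmb6 was at 14.7 CPM in the soleus of male mouse 3, where the nearest soleus library was at 24.1 CPM. Psmd14 was at 36.3 CPM in the soleus of male mouse 1, where the nearest was at 19.7 CPM. Neither gene was called between the muscles.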

How the results depend on the processing

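The count of members called, 4, was 2 with no low-count filter and 2 with protein-coding transcripts alone, and 2 to 5 when libraries were left out one at a time. Toward soleus it was 1, against 0 with no filter, 2 without both libraries of female mouse 2, and 0 to 2 over the left-out libraries. Toward TA it was 3, against 1 with protein-coding transcripts alone. Called regulators toward soleus went from 0 to 1, Akirin2, with the replicate block, to 1 with protein-coding transcripts alone, and to 0 to 1 over the left-out libraries. In males the count of 2 members became 1 with upper-quartile scaling, 1 with no filter, 0 at a mean of at least 5 CPM and 1 with DESeq2. Over all 8 alternative settings of that fit it ran from 0 to 3, so it also rose. With the replicate block, 3 members were called and Psmc6 was lost (adjusted p 0.0567); the block changed no other call of a member.

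Signs turned only for members that were not called. Over the left-out libraries the log2 fold change ran from -0.34 to 0.0078 for Psmb7, -0.22 to 0.37 for Psmb8, -0.12 to 0.67 for Psmb10, -0.12 to 0.047 for Psmc2, -0.050 to 0.072 for Psmd7, -0.26 to 0.086 for Psmd3 and -0.085 to 0.18 for Psmg2. Without both libraries of female mouse 2 Psmb8 was at -0.13, Psmd3 at 0.03 and Psmg2 at -0.076. With no filter Psmd7 was at -0.024 and Psmg2 at -0.0084, and with upper-quartile scaling Psmd7 was at -0.00036. Psmc2 was at 0.013 with DESeq2 size factors, 0.014 with DESeq2's test, 0.0077 at a mean of at least 5 CPM, 0.0013 with the replicate block and 0.0034 without Gm20594 and Cep295. The causes were not tested. Scaling moved the median of all genes by at most 0.026 in size. Few counts per member limit the intervals.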
